A study of Mus musculus with 9 samples.

Results

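The heterogeneous nuclear ribonucleoproteins (hnRNPs) described here are the products of 10 genes, Ptbp1, Ptbp3, Hnrnpd, Hnrnpdl, Hnrnpa1, Hnrnpa2b1, Hnrnph1, Hnrnpk, Hnrnpl and Hnrnpu. The genes were picked by name rather than by a threshold on measured values, though with earlier results of these data known, and all 10 were found by their NCBI Gene number among the 27179 gene identifiers of the count table. Their transcripts were measured by RNA immunoprecipitation sequencing (RIP-seq), in which RNA that comes down with a protein is sequenced, here by means of an antibody that recognises phosphorylated UPF1 (p-UPF1). The cells were CD43-negative splenic B cells of wild-type mice, stimulated for 72 h with 5 ug/mL CD40L, 10 ug/mL anti-IgM antibody and 20 ng/mL IL-4 (in the methods, anti-CD40 antibody takes the place of the ligand). The 9 libraries were 3 of input lysate, 3 of RNA recovered with normal rabbit IgG and 3 of RNA recovered with the p-UPF1 antibody, and all of them came from cells of the same genotype and stimulation. The study's methods give an age range for its adult mice of both sexes as a whole and call the points of its graphs independent biological replicates. Neither they nor the labels say which mice or cultures gave each RIP-seq library, and where replicates were technical the tests measure only that spread.

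hnRNPs coat nascent RNA and bias the choice of splice sites, often by keeping an exon out of the mRNA. Many of them also act on their own transcripts or on those of a paralogue: they promote the skipping of a coding exon or the use of an extra exon, a premature stop codon arises, and the RNA is degraded by nonsense-mediated mRNA decay (NMD). UPF1 is the RNA helicase at the centre of NMD, and it is phosphorylated on RNAs that are being committed to decay. The question put to these libraries is therefore which hnRNP transcripts came down with p-UPF1 beyond their level in the lysate and beyond what a nonspecific antibody recovers.

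The 4 stretches printed here are parts of the mouse genome at which annotated NMD transcripts of 4 members are spliced differently from the coding ones. They were read from the RefSeq GRCm38 (mm10) assembly at sites of the GENCODE M21 annotation, with intron in lower case and exon in capitals, 5′ to 3′ on the strand of the gene. The first is the Ptbp1 exon of 34 bases at chr10:79862014-79862047 (plus strand), shown with 60 bases of intron before it and 20 after it, at chr10:79861954-79862067. The annotated NMD transcripts Ptbp1-201 and Ptbp1-207 leave out this exon, and its length is not a multiple of 3. Of the 60 intron bases before it, 48 are C or T. The other 3 are acceptor (3′ splice) sites that NMD-class transcripts use and coding transcripts of the same gene do not, each with 20 intron and 10 exon bases. They lie at chr5:99962195-99962224 (minus strand) in Hnrnpd, at chr5:100035730-100035759 (minus strand) in Hnrnpdl and at chr7:28817315-28817344 (plus strand) in Hnrnpl. Hnrnpa1, Hnrnpu and Ptbp1 have such acceptor sites too, which are not printed.
Ptbp1 skipped exon: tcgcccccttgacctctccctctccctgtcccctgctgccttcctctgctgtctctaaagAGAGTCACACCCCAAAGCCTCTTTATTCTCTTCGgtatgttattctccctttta
Hnrnpd acceptor: accttgtttgtacccgccagCGGGAACTTC
Hnrnpdl acceptor: accttgtttgtacccgccagCGGGAACTTC
Hnrnpl acceptor: tgtaaaaccatgtgatgcagGGTCGCAGTG

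The Hnrnpd and Hnrnpdl windows are the same in all 30 bases. The identity between these paralogues ran unbroken for 56 bases, 36 before the acceptor and 20 from it on, inside an alignment of 342 bases of which 256 (74.9%) matched. In Hnrnpd the acceptor opens an exon of 107 bases (chr5:99962098-99962204) in the transcripts Hnrnpd-204 and Hnrnpd-208. In Hnrnpd-209 it opens an exon of 71 bases (chr5:99962134-99962204). The reading frames of these transcripts do not end within the exon. A read lying wholly within the identical run could come from either gene. The Hnrnpl acceptor opens an exon of 70 bases (chr7:28817335-28817404) in which the reading frame of Hnrnpl-213 ends, followed by 7 exon junctions. Of the 20 intron bases before it, 8 are C or T, against 13 of 20 in Hnrnpd and Hnrnpdl. At the acceptor sites not printed, 9 to 17 of 20 are. The deposited counts are sums over whole genes and do not separate these transcripts from the coding ones, so all values below are for the gene.

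The libraries held 19873687 to 24945286 counts for input, 17372510 to 18550508 for IgG and 23251890 to 24802119 for p-UPF1. Input library A was the deepest of its group, with 24945286 counts against 20328526 and 19873687. The B cell markers Cd79a, Cd79b, Ms4a1 and Pax5 summed to 2275 to 2292 counts per 1000000 counts (CPM) in input, 1518 to 1555 with IgG and 1196 to 1266 with p-UPF1. The 5 T cell, 3 NK cell and 4 erythroid markers each summed to under 1 CPM there, with Ncr1 and Hba-a1 at 0. The 5 myeloid markers summed to 142 to 154 CPM, of which Adgre1 made up 131 CPM, while Csf1r was at 0.030 CPM. Of these sums, the B cell, T cell and myeloid ones were lower in every p-UPF1 library than in every input library, the erythroid one was higher and the NK cell one overlapped. Over input, p-UPF1 differences on the log2 scale by edgeR were -3.04 for Cd79a, -1.08 for Cd79b, -0.73 for Ms4a1 and 1.65 for Pax5. The part of these markers in the results was not tested. CPM values are scaled by TMM factors, which set the typical gene equal between libraries. They are levels relative to the other RNAs of a library and not amounts of RNA recovered.

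The hnRNP transcripts as a group were a smaller part of the p-UPF1 RNA than of either background. The 10 genes together held 0.662% to 0.668% of all counts in input libraries, 0.708% to 0.723% in IgG libraries and 0.351% to 0.362% in p-UPF1 libraries. Without Ptbp1 the p-UPF1 libraries held 0.279% to 0.292%, and the input libraries 0.604% to 0.612%. Among the members, 1 was higher in p-UPF1 than in IgG libraries (Ptbp1) and 9 were lower by edgeR's quasi-likelihood test at an adjusted p under 0.05, where 40.4% of the 13129 genes tested were called higher and 42.2% lower. Over input, 2 were higher (Ptbp1 and Hnrnpdl), 7 were lower and 1 (Hnrnph1) was not called, where 40.8% of genes tested were called higher and 42.6% lower. On the log2 scale the median of the members was -1.14 over IgG and -1.17 over input, beside -0.03 in both comparisons for all genes tested. The comparisons share the p-UPF1 libraries, so one is no check of the other.

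None of the 10 genes met the combined criterion for binding in the study's methods, which asks for log2 fold changes of 1 or more against IgG and 2 or more against input with both adjusted p values under 0.05. The count was 0 by edgeR, by DESeq2 and by limma-voom, and no member reached either fold on its own, so that an unadjusted p leaves it at 0. Across all genes tested, 820 (6.25%) met the criterion. These directions are set against the typical gene of each library. The 13 mitochondrially encoded mRNAs took 2.47% to 2.53% of input, 2.05% to 2.24% of IgG and 0.0706% to 0.0778% of p-UPF1 counts, and setting them equal between libraries moved the median of all genes to 4.66 over IgG and 5.00 over input, which turned every member higher and put all 10 past the criterion. Relative to the median of all genes, 9 members were below and Ptbp1 was above over IgG under each of the 7 scalings, and 7 were below and 3 above over input.

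**Figure D1:**
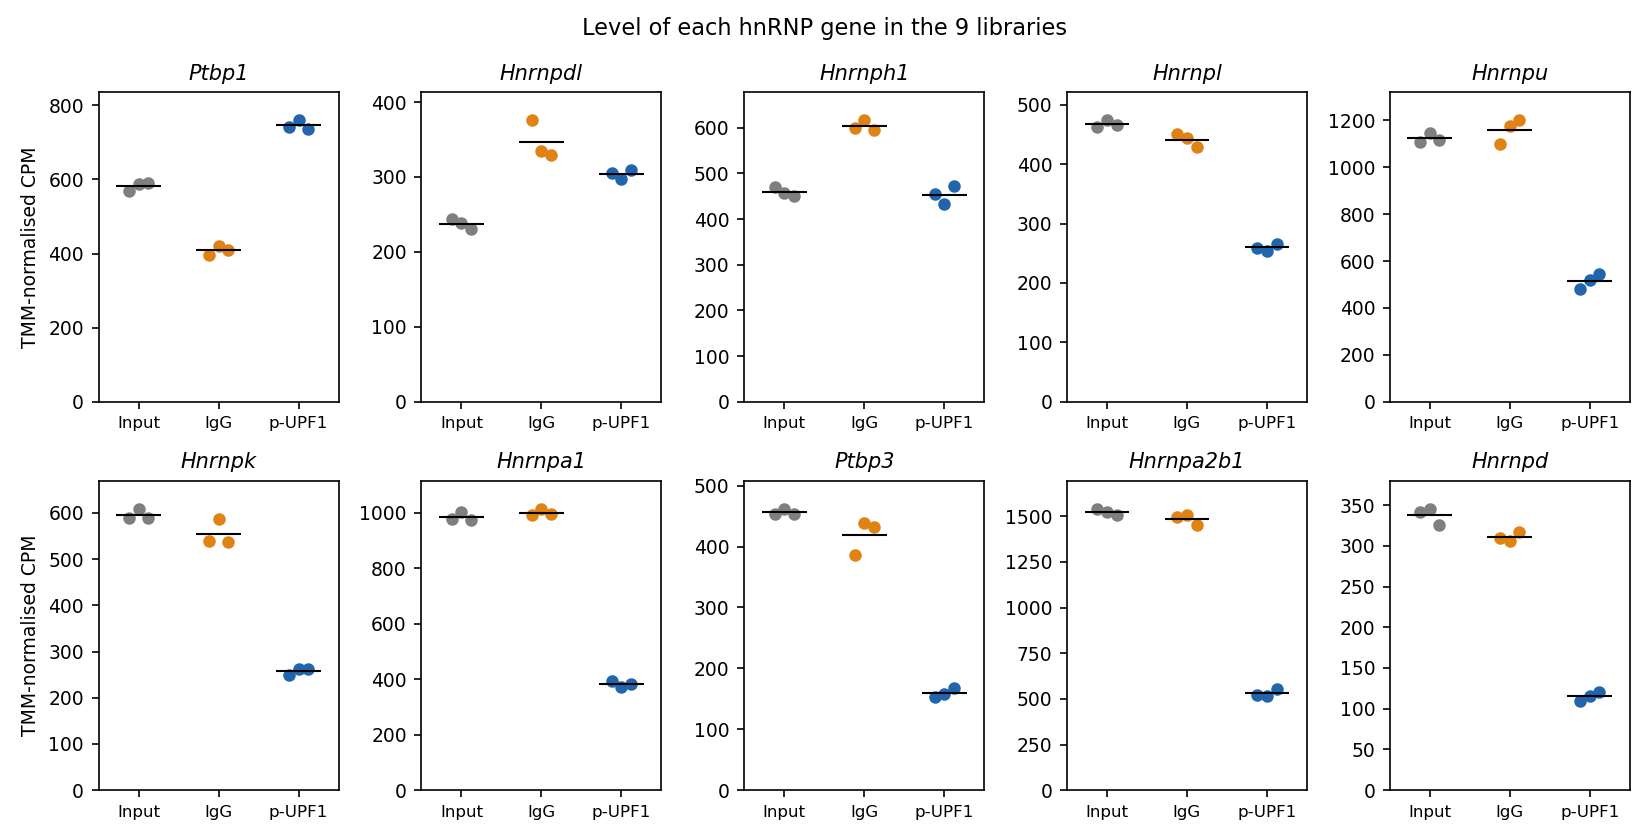
TMM-normalised CPM of each hnRNP gene (vertical axes start at 0 and differ between panels) in the 3 input, 3 IgG and 3 p-UPF1 libraries, ordered by the log2 fold change of p-UPF1 over input. Points are libraries and lines are means. Ptbp1 has its highest points in p-UPF1 libraries, and the 7 genes from Hnrnpl on have their lowest there, as they do under each scaling other than that to mitochondrially encoded mRNA.

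The polypyrimidine tract-binding proteins went in opposite directions on the TMM scale. Ptbp1 (chr10:79854432-79864435, plus strand), which represses exons flanked by pyrimidine-rich intron, stood at 569, 587 and 591 CPM in the 3 input libraries, 397, 420 and 411 CPM in the IgG libraries, and 743, 760 and 736 CPM in the p-UPF1 libraries. The 3 groups did not overlap, with IgG lowest and p-UPF1 highest. Against IgG the log2 fold change was 0.87 (SE 0.037, edgeR adjusted p = 1.0e-12), and against input it was 0.36 (SE 0.036, adjusted p = 1.0e-07). In the first comparison Ptbp1 was higher than 74.3% of the genes tested. It was also the member that the nonspecific antibody recovered least relative to the lysate, at a log2 fold change of IgG over input of -0.51 (adjusted p = 1.7e-08), so the difference from IgG exceeds that from input.

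Ptbp3 (chr4:59471868-59549378, minus strand), a paralogue of Ptbp1 known from blood cells, was at 454, 462 and 454 CPM in input, 387, 439 and 432 CPM with IgG and 154, 158 and 167 CPM with p-UPF1. All 3 p-UPF1 libraries lay far below the others. Its level was 2.62-fold lower than in IgG (log2 fold change -1.39, SE 0.050, edgeR adjusted p = 1.0e-13) and 2.86-fold lower than in input (-1.51, SE 0.050, adjusted p = 2.8e-14). The read counts of the pair within a library need no scaling between libraries. For each read of Ptbp3 there were 1.28 ± 0.024 reads of Ptbp1 in the lysate, 0.978 ± 0.042 after IgG and 4.68 ± 0.24 after p-UPF1 precipitation (SD, n = 3). The ratio was thus 4.78-fold higher in p-UPF1 than in IgG libraries and 3.66-fold higher than in input, without overlap.

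The hnRNP D pair also came apart. Hnrnpd (chr5:99955935-99979130, minus strand) encodes AUF1, which binds AU-rich elements and promotes the decay of the mRNAs that carry them. Its level was 342, 346 and 325 CPM in input, 310, 306 and 317 CPM with IgG and 109, 115 and 121 CPM with p-UPF1. It was the lowest member over input, at a log2 fold change of -1.55 (SE 0.045, edgeR adjusted p = 5.1e-15), and stood at -1.43 over IgG (SE 0.045, adjusted p = 1.7e-14). Hnrnpdl (chr5:100033577-100039936, minus strand), its paralogue with the same RNA-binding domains, was at 244, 238 and 230 CPM in input, 376, 335 and 330 CPM with IgG and 305, 297 and 310 CPM with p-UPF1. The p-UPF1 libraries thus lay between the 2 backgrounds, above every input library and below every IgG library. The log2 fold change was 0.36 over input (SE 0.049, edgeR adjusted p = 4.0e-06) and -0.19 over IgG (SE 0.048, adjusted p = 0.0018). The IgG antibody alone recovered Hnrnpdl at 0.55 over input (adjusted p = 1.7e-07), higher than for 92.6% of genes tested.

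Within a library there were 1.42 ± 0.027 reads of Hnrnpd for each read of Hnrnpdl in the lysate, 0.90 ± 0.070 after IgG and 0.379 ± 0.017 after p-UPF1 precipitation (SD, n = 3). The ratio was 3.76-fold lower in p-UPF1 than in input libraries and 2.37-fold lower than in IgG libraries. The genes that share the identical acceptor shown above therefore changed unequally, which the ratio shows without any scaling between libraries, and on the TMM scale they changed in opposite directions over input.

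The A/B pair moved together. Hnrnpa1 (chr15:103239943-103246698, plus strand) and Hnrnpa2b1 (chr6:51460434-51470048, minus strand) encode abundant proteins that bind exonic silencers and cause exon skipping. Hnrnpa1 was at 979, 1002 and 975 CPM in input, 994, 1015 and 995 CPM with IgG and 393, 374 and 382 CPM with p-UPF1. Hnrnpa2b1 was at 1542, 1526 and 1506 CPM in input, 1499, 1505 and 1452 CPM with IgG and 521, 517 and 553 CPM with p-UPF1. In both genes the p-UPF1 libraries were well below the others, and input and IgG were close together. The log2 fold changes over IgG were -1.39 for Hnrnpa1 (SE 0.036, edgeR adjusted p = 1.6e-15) and -1.49 for Hnrnpa2b1 (SE 0.037, adjusted p = 1.2e-15), and those over input were -1.36 and -1.52. The ratio of Hnrnpa1 to Hnrnpa2b1 was 0.646 ± 0.011 in the lysate, 0.674 ± 0.011 after IgG and 0.723 ± 0.032 after p-UPF1 precipitation (SD, n = 3), with 1 p-UPF1 library, at 0.691, close to the highest IgG library at 0.685. For all 6 comparisons of a paralogue ratio the exact permutation test (two-sided, 3 against 3 libraries) gave p = 0.10, the smallest that this design can give, and 0.10 after Benjamini-Hochberg adjustment.

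**Figure D2:**
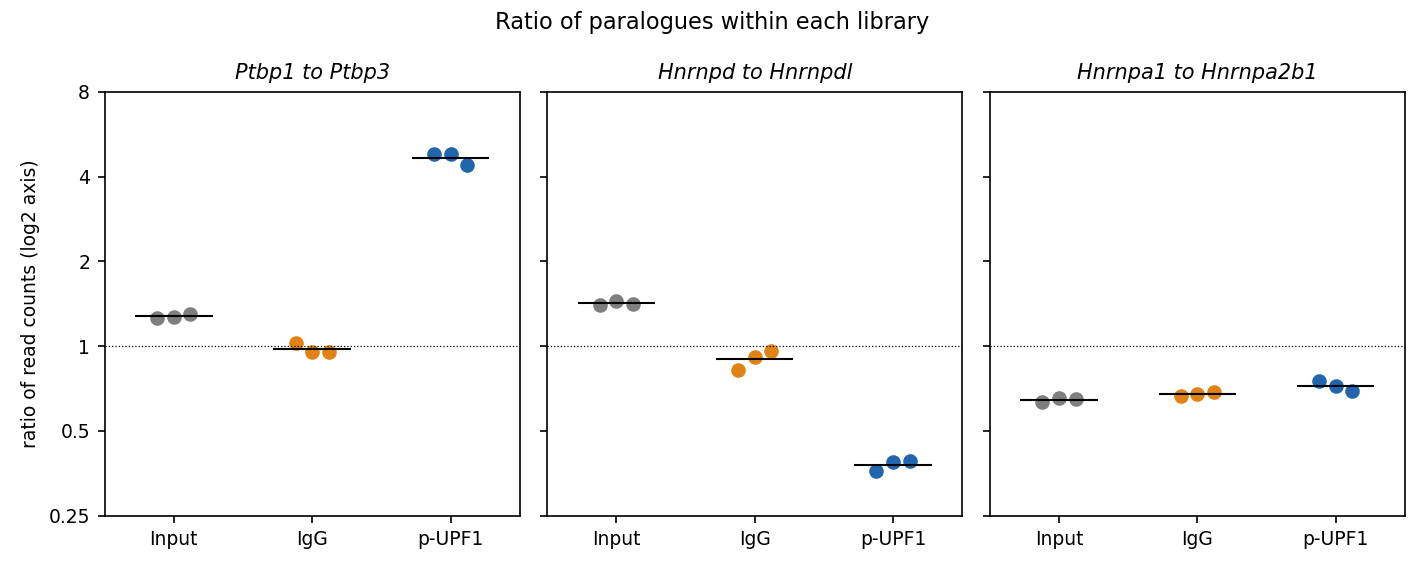
Ratio of the read counts of 2 paralogues within each library, on a log2 axis (points, libraries; lines, means; dotted line, equal counts). The Ptbp1 to Ptbp3 ratio averages 4.68 in p-UPF1 libraries against 1.28 in input, the Hnrnpd to Hnrnpdl ratio falls to 0.379 from 1.42, and the Hnrnpa1 to Hnrnpa2b1 ratio stays between 0.635 and 0.755 in the 9 libraries.

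Of the remaining members, Hnrnph1 stood out by its level in IgG. Hnrnph1 (chr11:50375257-50386528, plus strand), whose protein binds runs of G, was at 469, 458 and 450 CPM in input, 600, 617 and 595 CPM with IgG and 454, 434 and 472 CPM with p-UPF1. Input and p-UPF1 libraries overlapped, and all 3 IgG libraries were above both. Over input its log2 fold change of -0.02 (SE 0.039, edgeR adjusted p = 0.67) was not called, and its sign changed with the scaling. It was called higher with TMM on an IgG library (0.11, adjusted p = 0.015) and with no filter on low counts (0.11, adjusted p = 0.022), and lower with upper-quartile factors (-0.085, adjusted p = 0.044). Over IgG it was -0.41 (SE 0.039, adjusted p = 4.7e-08). It is the one member for which the annotation lists no NMD transcript.

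Hnrnpl (chr7:28808546-28822268, plus strand) binds CA-rich RNA and is known in lymphocytes for the splicing of CD45. It was at 462, 474 and 465 CPM in input, 451, 444 and 430 CPM with IgG and 259, 255 and 266 CPM with p-UPF1. It was the least reduced of the 7 members lower over input, at -0.85 (SE 0.037, edgeR adjusted p = 1.4e-12), with -0.77 over IgG (SE 0.037, adjusted p = 6.2e-12). Hnrnpk (chr13:58391132-58403343, minus strand), a KH-domain protein that binds C-rich RNA, was at 589, 609 and 590 CPM in input, 539, 588 and 537 CPM with IgG and 250, 263 and 263 CPM with p-UPF1. It was lower by edgeR in both comparisons, at -1.20 over input (SE 0.043, adjusted p = 8.8e-14) and -1.10 over IgG (SE 0.043, adjusted p = 3.4e-13). Hnrnpu (chr1:178321108-178338891, minus strand), known as scaffold attachment factor A for its binding to chromatin and nuclear RNA, was at 1107, 1148 and 1116 CPM in input, 1100, 1176 and 1201 CPM with IgG and 481, 518 and 544 CPM with p-UPF1. It was lower as well, at -1.13 over input (SE 0.047, adjusted p = 6.9e-13) and -1.17 over IgG (SE 0.047, adjusted p = 4.8e-13). For each of these genes every p-UPF1 library was below every library of the other groups.

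**Figure D3:**
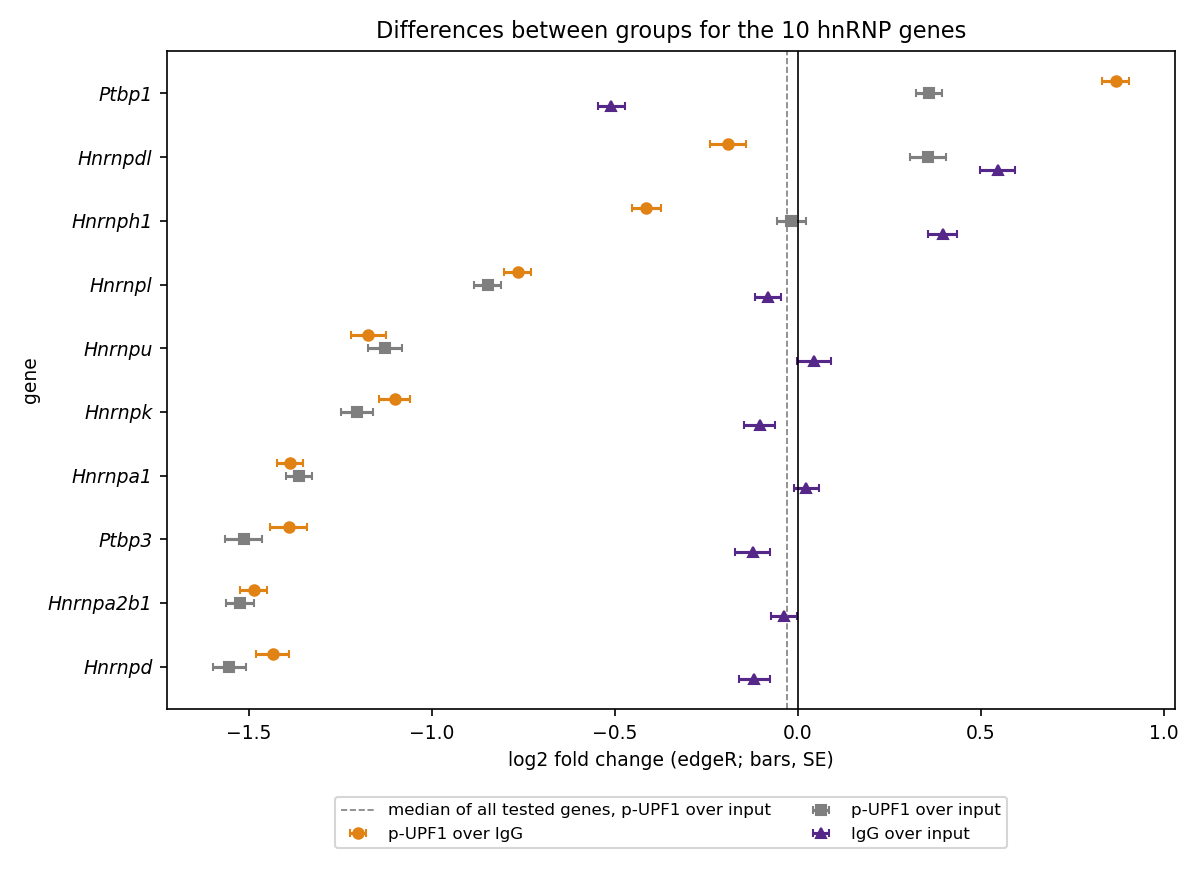
Log2 fold change of each hnRNP gene (horizontal axis) for p-UPF1 against IgG (circles), p-UPF1 against input (squares) and IgG against input (triangles), from edgeR on TMM-scaled counts, with bars for the SE and a dashed line for the median of all genes tested in p-UPF1 over input. Ptbp1 alone is to the right of 0 over IgG, Ptbp1 and Hnrnpdl are to the right over input, and the IgG values lie between -0.51 and 0.55. With counts scaled to mitochondrially encoded mRNA all p-UPF1 values are to the right of 0.

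For most members the RNA recovered with the nonspecific antibody was close to the lysate. In IgG over input, 2 members were higher (Hnrnpdl and Hnrnph1, at 0.55 and 0.40), where 18.2% of genes tested were called higher. Under 6 of the alternative settings 4 members were higher, with Hnrnpa1 and Hnrnpu added, and under the mitochondrial scaling 9 were. Another 4 were lower, where 34.7% of genes tested were, and Ptbp1 at -0.51 was the largest of them. The others, Hnrnpd and Ptbp3 at -0.12 and Hnrnpk at -0.10, were not called lower under any of the 6 other scalings, and 1 or more of them lost the call in 7 of the 9 fits that left out a library. The median of the members was -0.06, beside -0.10 for all genes tested.

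Per length of exon, the order of the transcripts was not the same in the lysate and in the p-UPF1 RNA. In input, Hnrnpa1 was highest at 373 ± 5.6 RPKM (CPM per 1000 bases of exon; SD, n = 3) and Hnrnpa2b1 next at 356 ± 4.3 RPKM. Ptbp1 followed at 187 ± 3.7 RPKM and Hnrnpk at 172 ± 3.3 RPKM, then Hnrnpl, Hnrnpu, Hnrnph1, Ptbp3 and Hnrnpdl, down to Hnrnpd at 42.9 ± 1.4 RPKM. No neighbours in that order overlapped across the 3 input libraries. In p-UPF1 libraries Ptbp1 was highest at 240 ± 4.0 RPKM, ahead of Hnrnpa1 at 145 ± 3.7 RPKM and Hnrnpa2b1 at 124 ± 4.7 RPKM. Hnrnph1 at 97.2 ± 4.1 RPKM moved ahead of Hnrnpk at 74.5 ± 2.1 RPKM. Hnrnpl and Hnrnpdl, at 66.4 ± 1.4 and 66.3 ± 1.4 RPKM, overlapped, and Ptbp3 (21.3 ± 0.92 RPKM) and Hnrnpd (14.6 ± 0.73 RPKM) were lowest.

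**Figure D4:**
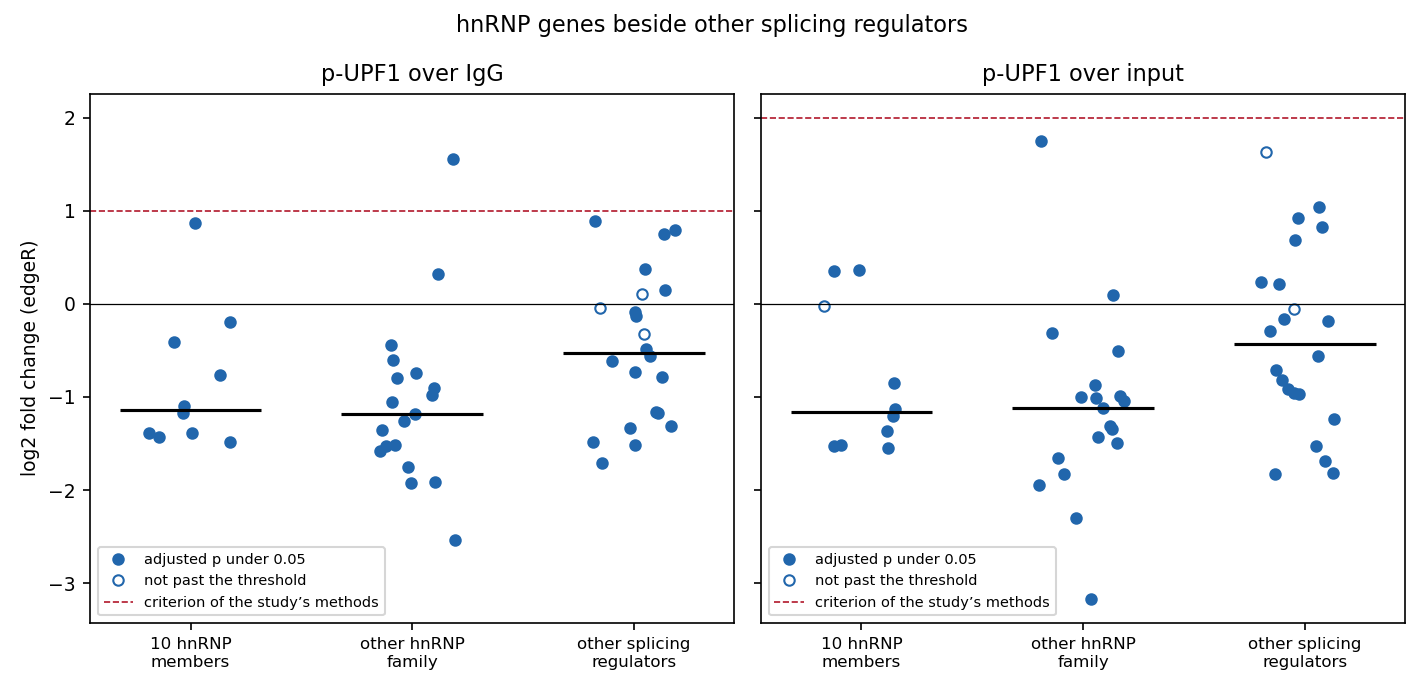
Log2 fold changes of the 10 hnRNP genes, 19 other hnRNP family genes and 22 other splicing regulators in p-UPF1 over IgG (left) and over input (right), from edgeR on TMM-scaled counts, with filled points for an adjusted p under 0.05, black lines for medians and dashed red lines for the folds of the binding criterion. The medians of both hnRNP groups lie between -1.12 and -1.18, Ptbp2 is the highest hnRNP gene and Pcbp2 the lowest. Scaled to mitochondrially encoded mRNA, 18 of the 19 and all 22 pass both folds.

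Most other genes of the hnRNP family were lower as well, with the typical gene of each library as the scale. Of 19 other family genes, all of them tested, 2 were higher and 17 lower over IgG as well as over input by edgeR at an adjusted p under 0.05, where 40.4% and 40.8% of all genes tested were called higher over IgG and over input and 42.2% and 42.6% lower. None met the combined criterion, which 6.25% of all genes did. Their median was -1.18 over IgG and -1.12 over input. Ptbp2, the neuronal member of the polypyrimidine tract-binding family, was the highest at 26.9 ± 2.0 CPM in the lysate, 30.8 ± 0.30 CPM after IgG and 90.6 ± 3.9 CPM after p-UPF1 precipitation (SD, n = 3). It stood at 1.56 over IgG (adjusted p = 2.5e-13) and at 1.75 over input (adjusted p = 4.8e-14), short of the criterion over input. On the TMM scale Ptbp1 and Ptbp2 were thus both higher in p-UPF1 libraries than in either background and Ptbp3 lower, while scaling to mitochondrially encoded mRNA turned Ptbp3 higher as well. The other gene that was higher, Hnrnpc, which binds U tracts, was at 0.32 over IgG and 0.09 over input (adjusted p = 0.023). Over input its call was lost by library size alone (0.046, adjusted p = 0.21), with upper-quartile factors (0.026, adjusted p = 0.49), at an adjusted p under 0.01 and without Input A, Input C, p-UPF1 B or p-UPF1 C (0.077 to 0.088), which leaves Ptbp2 as the 1 gene higher. The lowest were the poly(C)-binding proteins Pcbp2, at -2.54 over IgG and -3.17 over input, and Pcbp1, at -1.93 and -2.30.

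Splicing regulators outside the hnRNP family fell on both sides on the same scale. Of 22 genes, 5 were higher, 14 lower and 3 not called over IgG, and 6 were higher, 14 lower and 2 not called over input, with medians of -0.52 and -0.43. Under the alternatives other than the mitochondrial scaling, 4 to 6 were higher and 12 to 15 lower over IgG. Over input, 6 or 7 were higher and 12 to 15 lower. Beside the shares of all genes given above, 40.4% higher and 42.2% lower over IgG and 40.8% and 42.6% over input, higher calls were fewer and lower calls more in this list. None met the combined criterion, against 6.25% of all genes. Celf1, which binds GU-rich RNA, was the highest called gene over input, at 282 ± 1.5 CPM in input and 582 ± 36 CPM in p-UPF1 libraries (log2 fold change 1.04, edgeR adjusted p = 5.0e-11), and was at 0.79 over IgG. Rbfox2 had a larger value over input, 1.63, but with 0.16 CPM in input and an adjusted p of 0.090 it was not called, though it was without IgG library C (1.62, adjusted p = 0.016) and with no filter on low counts (1.74, adjusted p = 0.021). Elavl1 (HuR, a stabiliser of AU-rich mRNAs) and Khdrbs1 (Sam68) were the lowest over input, both at -1.82, and stood at -1.49 and -1.31 over IgG.

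Annotated NMD transcripts were listed for members that were higher and for members that were lower. The annotation lists 4 such transcripts for Hnrnpd, 3 each for Hnrnpk, Hnrnpu and Ptbp1, 2 each for Hnrnpa1, Hnrnpa2b1, Hnrnpdl and Ptbp3, 1 for Hnrnpl and none for Hnrnph1. At least 1 was thus listed for 9 of 10 members and for 3486 of the 11853 protein-coding genes tested (29.4%). Those 3486 genes had medians of 0.17 over IgG and 0.20 over input on the log2 scale, and the 8367 without had -0.06 and -0.08. The 2 classes also differed in median number of annotated transcripts (8 against 4) and median level (44.3 against 31.2 CPM). Median coding length was 1546 against 1341 bases, and the 3′ untranslated region 901.5 against 981 bases. The part of these differences was not tested. The members had more annotated transcripts than the protein-coding genes tested (median 13 against 5) and higher levels (median of the mean over all libraries 488 against 35.4 CPM). In the transcript with the longest coding part, that part had a median of 1407 bases, against 1404 for all, and the 3′ untranslated region had a median of 1228 bases, against 953. That region ranged from 360 bases in Hnrnpl to 5429 in Hnrnpd, both lower in p-UPF1 than in input, and Ptbp1 (1155 bases) and Hnrnpdl (1429) lay between them.

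The genes closest in pattern to the highest and the lowest member over input were taken from 8946 genes by the Euclidean distance of log2 CPM over the 9 libraries, each gene centred on its own mean. For Ptbp1 they were Tapbpl (distance 0.097), Pwp1 (0.13) and Alg9 (0.14), with log2 fold changes over IgG of 0.88, 0.83 and 0.92. For Hnrnpd they were Aarsd1 (0.13), Ythdf2 (0.14) and Stip1 (0.14), with -1.38, -1.38 and -1.36 over IgG. Ptbp1 was the highest member over input by little, at 0.358 against 0.355 for Hnrnpdl. Without Input library A the order was reversed, with Ptbp1 at 0.333 and Hnrnpdl at 0.367.

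Counts of some members could include reads of other genes, or lack reads that fit another gene as well. How such shared reads were counted is not stated. A copy of the coding sequence with at least 90% identity over at least 50% of its length lies elsewhere in the genome for Hnrnpa1 (11 copies), Hnrnpk (2), Hnrnpa2b1, Hnrnpdl and Ptbp1 (1 each), and for none of the others. The genes listed at the Hnrnpk copies, Gm4130 and Gm7964, held 10.8% as many counts as Hnrnpk itself, and those at the Hnrnpa1 copies held 1.93%. Whether strand was used in counting is not stated for these libraries. On the opposite strand, exons of Enoph1 overlap Hnrnpdl by 909 bases, Cox20 overlaps Hnrnpu by 392, E130317F20Rik and Plppr3 overlap Ptbp1 by 290 and 178, Rmi1 overlaps Hnrnpk by 193 and 4930524J08Rik overlaps Hnrnpd by 112. Enoph1 had 4994 counts over the 9 libraries and Hnrnpdl 55964.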

How the data were processed

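The authors deposited 1 table of unscaled counts of reads for each gene, with a column for every library. The submitters' processing notes name cutadapt, HISAT2, featureCounts and mm10 without versions. The study's RNA-seq methods give single-end, unstranded alignment, and nothing separate is stated for RIP-seq. Libraries came from a directional kit without molecular identifiers. Column letters do not match the numbered replicates in the labels, so columns were assigned to groups only, with the letter as a block tried as an alternative. Symbols came from RefSeq (25275 of 27179 identifiers matched; the rest held 0.380% of counts). edgeR 4.0.16 (R 4.3.3) kept 13129 genes (filterByExpr, minimum count 10, minimum total 15), scaled by TMM and fitted all 9 libraries by group (6 residual degrees of freedom), with glmQLFTest and Benjamini-Hochberg adjustment over all genes tested. Alternatives included other scalings and filters, DESeq2 1.42.0 and limma-voom (limma 3.58.1). RPKM divides CPM by the summed exon length. Copies were sought with blastn 2.17.0+. The procedure was tested on simulated data in which few genes changed, as many up as down. That setting does not test the scaling where most genes differ, as in the p-UPF1 comparisons. The members and lists were chosen with earlier results of these data known. Other-list genes were named where they were the highest or lowest 2 over input or met both criteria. One marker result is not reported here.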

Additional observations from a re-analysis of the deposited data

How the results depend on the processing

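Under 22 alternatives other than the mitochondrial scaling, each member kept its direction and its side of the threshold in p-UPF1 over IgG, and each but Hnrnph1 did so over input. Hnrnph1 over input ranged from -0.085 (upper-quartile factors, called lower) to 0.11, with 0.025 under DESeq2's size factors as under DESeq2, 0.0039 with TMM on an input library, 0.11 with TMM on an IgG library and with no filter (called higher in both, which gives 3 members higher), 0.0053 at a minimum of 1 CPM in 3 libraries, 0.0067 with the 2 groups alone and from -0.050 to 0.010 when 1 library was left out, above 0 without p-UPF1 B. In IgG over input, Hnrnpa2b1 turned to 0.078 by library size alone, 0.032 with upper-quartile factors, 0.069 and 0.062 with TMM on an input and an IgG library, 0.050 with no filter and 0.069 with 2 groups. Hnrnpl turned to 0.034, 0.026, 0.019, 0.0069 and 0.026 under the same settings without the upper quartile, and Hnrnpk to 0.012 by library size, 0.0029 with TMM on an input library and 0.0031 with 2 groups. Under those 6 settings 4 members were higher (Hnrnpa1 and Hnrnpu in addition) and 1 lower. With DESeq2, its size factors, or an adjusted p under 0.01, 1 was lower, and with the 1 CPM minimum 2 were. Leaving out 1 library gave 1 to 4 lower members, with 1 without Input A or B and 2 without Input C.

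Scaling to equal mitochondrially encoded mRNA gave 10 members higher and 0 lower in both p-UPF1 comparisons. Over IgG the values became 3.31 for Hnrnpa1, 3.21 for Hnrnpa2b1, 3.26 for Hnrnpd, 4.51 for Hnrnpdl, 4.28 for Hnrnph1, 3.60 for Hnrnpk, 3.93 for Hnrnpl, 3.52 for Hnrnpu and 3.30 for Ptbp3. Over input they became 3.68 for Hnrnpa1, 3.52 for Hnrnpa2b1, 3.49 for Hnrnpd, 5.02 for Hnrnph1, 3.84 for Hnrnpk, 4.19 for Hnrnpl, 3.91 for Hnrnpu and 3.53 for Ptbp3. In IgG over input 9 were higher and 1 lower, with 0.31 for Hnrnpa2b1, 0.23 for Hnrnpd, 0.24 for Hnrnpk, 0.26 for Hnrnpl and 0.22 for Ptbp3. Both criteria were met by 10 members, 18 other hnRNP genes and 22 other splicing regulators. A fit with the column letter as a replicate block, chosen after seeing the data, changed no call of the 30 member values, with 1 member higher and 9 lower over IgG and 2 and 7 over input. No source says what the letters pair. Deviations from the group means correlated at -0.0051 to 0.054 between libraries of the same letter and at -0.056 to 0.022 between those of different letters. Of the 9 libraries, 6 were closest to a library of their own letter, and whether the letters mark a pairing was not tested. Without molecular identifiers, counting error leaves out amplification, and 3 libraries a group limit each ratio test to a p of 0.10.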

Other observations

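The rows at copies of 2 members were picked once their values were known. At the Hnrnpk copies, Gm7964 was at -1.15 over IgG and -1.32 over input by edgeR and Gm4130 at -1.0 and -1.50, beside -1.10 and -1.20 for Hnrnpk. At the Hnrnpa1 copies, Gm10052 was at -1.51 and -1.71, Gm5643 at -2.19 and -1.98 and Hnrnpa1l2-ps2 at -1.68 and -1.56, beside -1.39 and -1.36 for Hnrnpa1. The last of these copies averaged 0.89 CPM and Gm5643 0.53 CPM over all libraries. How many of these reads came from the parent genes was not tested.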
